A study of Mus musculus with 12 samples.

Results

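Complexes III, IV and V are the last steps of oxidative phosphorylation in the inner mitochondrial membrane. Complex III takes electrons from ubiquinol and hands them to cytochrome c, a small soluble protein that carries them to complex IV (cytochrome c oxidase), where oxygen is reduced to water. Both complexes pump protons, and complex V (ATP synthase) uses the return of those protons to make ATP. A few core subunits are encoded by mitochondrial DNA and the rest by nuclear genes. Macrophages activated through Toll-like receptor 4 are known to rely less on this chain for ATP and more on glycolysis, and cytochrome c released from mitochondria also triggers apoptosis.

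The nuclear genes of these complexes were taken by symbol, as the protein-coding genes whose names begin with Uqcr, Cox4 to Cox8 or Atp5, with Cyc1 and Cycs added. There were 42 of them among the 20884 genes present in all 3 of the authors' deposited tables. Complex III contributed 9, cytochrome c 1, complex IV 15 and complex V 17. Cox8c matched the symbols as well but stood in 1 table only and was left out. All 42 had an adjusted p-value at every time, so none was lost to a filter on low values. They lie on 19 chromosomes.

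The cells were bone marrow-derived macrophages of wild-type C57BL/6 male mice 8 to 16 weeks old, grown for 7 days in 10% serum. Macrophage colony stimulating factor (M-CSF, 10 ng/mL) was in the medium of every group to the end, controls included. Each of 4 groups had 3 RNA-seq libraries of polyadenylated RNA: controls without monophosphoryl lipid A (MPLA), cells given MPLA for 4 h or for 24 h, and cells collected 3 d after priming ended. MPLA is a detoxified lipid A that signals through Toll-like receptor 4. The length of priming in the last group, the time at which controls were collected and whether libraries came from separate animals were not stated in the labels. The p-values therefore cover library-to-library spread only, and this may be technical.

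Each MPLA group was compared with the same 3 controls in a table of its own. The values are the log2 fold changes of the authors' deposited tables, turned to MPLA over control, so that 1 means 2-fold higher with MPLA. They come from DESeq2 unless edgeR is named, and a gene was called at a DESeq2 adjusted p under 0.05. No values per library and no levels were available. The standard error (SE) of a change was worked back from its DESeq2 p-value in the authors' deposited table, assuming a two-sided normal test with 3 libraries per group. In bulk RNA, fewer cells with a transcript and less of it per cell cannot be told apart.

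The edgeR columns of the authors' deposited tables sat below the DESeq2 columns by 0.94 at 4 h, 0.41 at 24 h and 0.13 at 3 d, for the median tested gene and for the median member alike. Many called members changed sign between the tools for that reason. For the same reason every gene called lower with DESeq2 was also lower with edgeR (5438 of 5438, 5293 of 5293 and 3892 of 3892 in the authors' deposited tables), so a decrease shared by both tools adds nothing to the DESeq2 call. Differences between genes of 1 table, and a gene's place relative to the median tested gene, hardly depend on this shift. Differences between paired genes are given with 95% intervals that take the 2 errors as independent, as descriptions, since the pairs were chosen with results known. Depth relative to the controls, read from constants in the authors' deposited tables, was 2.32 at 3 d, 0.859 at 4 h and 0.934 at 24 h. Of 10 macrophage marker symbols 9 were in each of the authors' deposited tables (the absent one, Emr1, is an older name of Adgre1, which was present). Of these 9 the authors' deposited tables had 6, 4 and 6 called higher and 2, 5 and 3 lower at 4 h, 24 h and 3 d with DESeq2 (edgeR 3, 3 and 5 higher, 6, 6 and 3 lower). Adgre1, the F4/80 antigen, had 1.22, 2.15 and 1.17 and Csf1r, the receptor for M-CSF, -1.01, -1.52 and -0.54 in the authors' deposited tables, each with the same direction and call with edgeR. Of 38 markers of neutrophils, dendritic cells, lymphocytes, fibroblasts, red cells and mast cells, 24, 23 and 24 were listed at 4 h, 24 h and 3 d. Of these 20, 14 and 14 had a DESeq2 adjusted p, with 5, 3 and 4 called higher and 2, 5 and 2 lower. Of all tested genes 31.8%, 32.4% and 29.5% were called higher and 31.0%, 32.2% and 25.8% lower. The fibroblast marker Dcn was called higher at all 3 times, with 6.86 at 24 h. The mast cell marker Kit was called lower at all 3 times. All 4 erythroid markers were absent, the summed level of any marker list cannot be read from the authors' deposited tables, and its part in the results was not tested.

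In the authors' deposited table for 4 h, 30 members were called higher and 4 lower, against 31.8% higher and 31.0% lower (62.9% called) of all 17523 genes tested, but the edgeR columns called 2 members higher and 37 lower, against 13.5% and 50.1% of all genes. Of the 30, Cycs and Cox5a were higher with both tools (16.6% of tested genes were), 26 were lower with edgeR, and Uqcrfs1 and Atp5b were called in neither direction there. The 4 lower members were Cox7a2l, Atp5g2, Atp5s and Atp5sl. At 24 h the authors' deposited table had 19 members higher and 10 lower, against 32.4% and 32.2% (64.6% called) of 16442 genes, and edgeR had 8 higher and 30 lower, against 16.2% and 41.8%. The 8 higher with both tools (20.8% of tested genes were) were Cycs, Cyc1, Uqcrc2, Cox5a, Cox6a2, Atp5b, Atp5f1 and Atp5o. At 3 d the authors' deposited table had 5 members higher and 21 lower, against 29.5% and 25.8% (55.2% called) of 15111 genes. Of the 5 higher, Cycs, Cyc1 and Cox5a were also higher with edgeR (22.5% of tested genes were higher with both), which had 3 members higher and 31 lower, against 15.5% and 27.7% of all genes. The third method of the authors' deposited table, baySeq, called far fewer at 3 d: Cycs, Cox5a and Uqcr11 were the 3 members with a baySeq error rate under 0.05, against 16.4% of all genes. Most of the 3 d calls thus rest on DESeq2, since a decrease shared with edgeR adds nothing to the DESeq2 call.

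The median member change was 0.38, 0.08 and -0.12 at 4 h, 24 h and 3 d, against -0.04, -0.05 and -0.02 for all tested genes in the authors' deposited tables. With edgeR it was -0.56, -0.33 and -0.25, against -0.97, -0.46 and -0.15. Under either tool 36, 29 and 14 of the 42 members lay above the median tested gene at 4 h, 24 h and 3 d. Member changes were small: 5, 6 and 3 were at least 2-fold in either direction, called or not. The members were also measured with more precision than most genes, with a median SE of 0.058, 0.053 and 0.049 against 0.20, 0.14 and 0.088 over all tested genes in the authors' deposited tables. A change as small as -0.11 for Atp5a1 at 3 d (DESeq2 adjusted p = 0.0012) was called in the authors' deposited table.

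**Figure D1:**
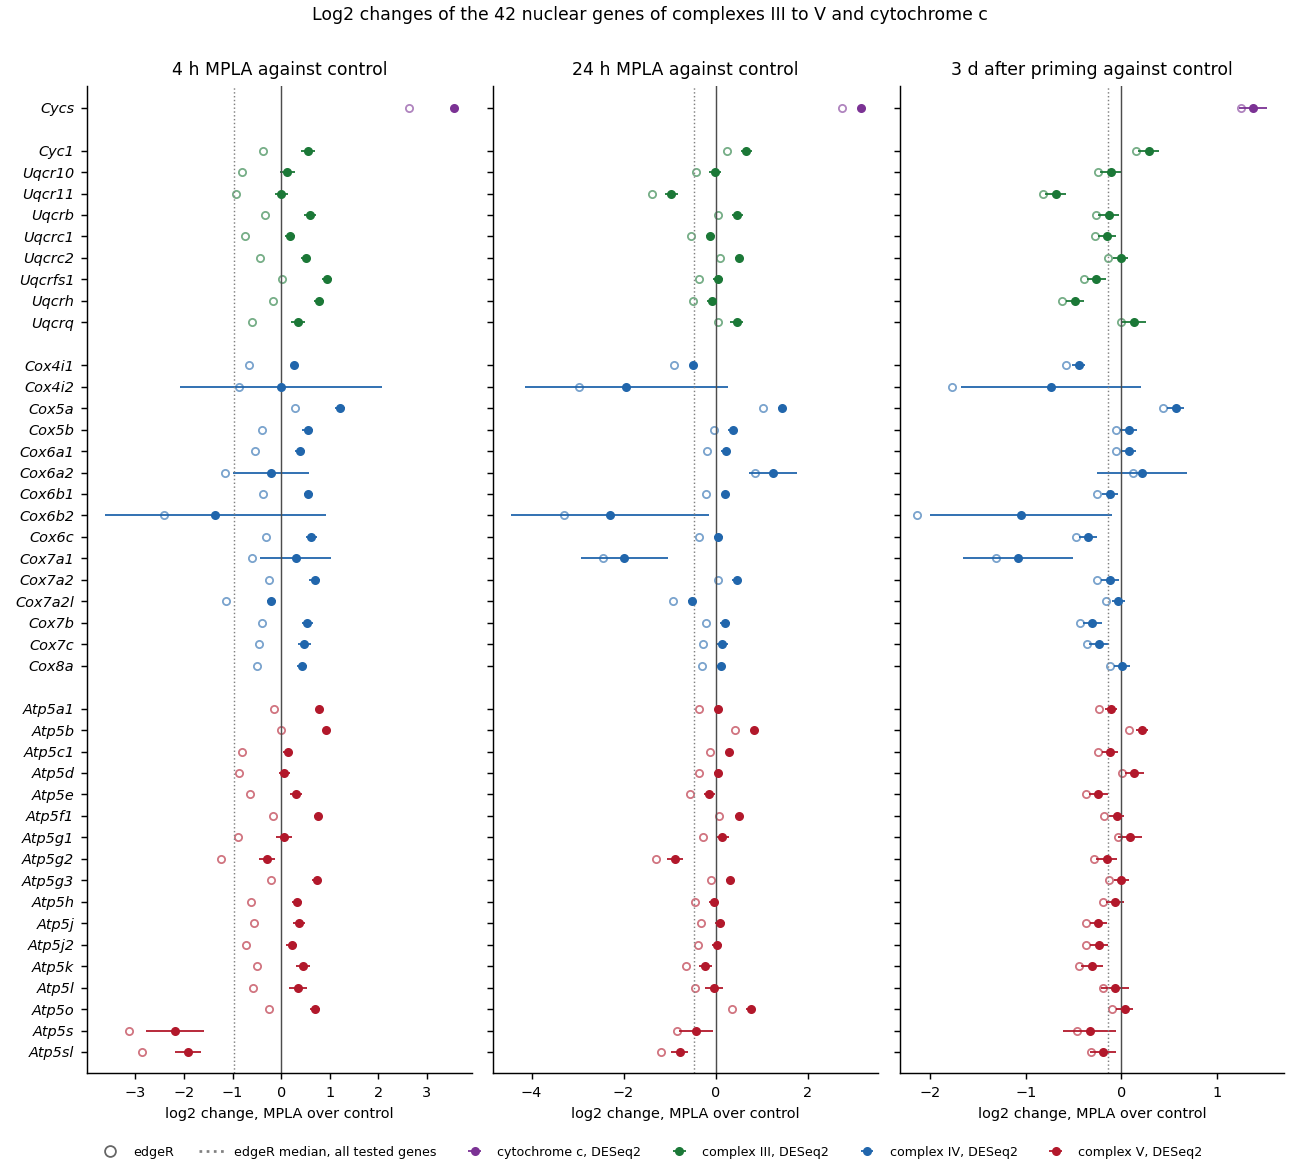
Log2 change of each of the 42 members (rows, grouped by complex) at 4 h, 24 h and 3 d against control, 3 libraries per group. Filled points are DESeq2 values with a 95% interval from the implied SE (none for Cycs at 4 h and 24 h), open circles are edgeR values, the solid line is 0 and the dotted line the edgeR median of all tested genes; Cycs stands far to the right in every panel, and most other members lie above 0 at 4 h with DESeq2 but below 0 with edgeR.

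**Figure D2:**
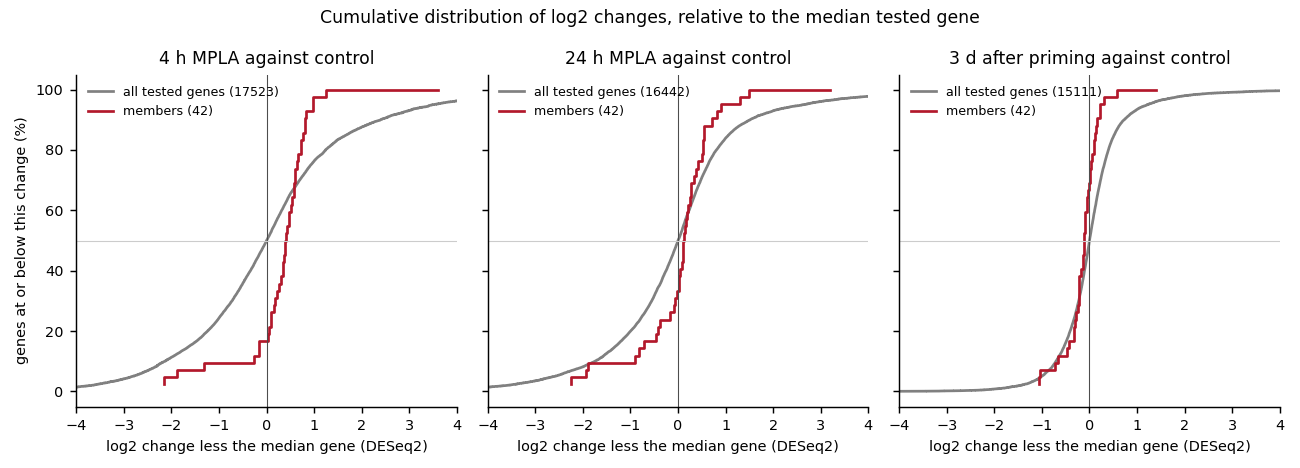
Share of genes (%) at or below each log2 change, with the median tested gene set to 0, for the 42 members (red) and for all tested genes (grey). At 4 h 36 of 42 members lie to the right of 0, at 24 h 29 and at 3 d 14, and the member curve is steeper than the grey one.

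Cytochrome c stood apart from the rest. Cycs, the somatic cytochrome c gene (ENSMUSG00000063694, chromosome 6, 50562563 to 50566538, minus strand), had log2 changes of 3.56, 3.15 and 1.38 at 4 h, 24 h and 3 d in the authors' deposited tables, and 2.63, 2.74 and 1.25 with edgeR. These correspond to 11.8-fold, 8.86-fold and 2.59-fold higher expression with DESeq2 in the authors' deposited tables. The DESeq2 adjusted p was stored as 0 at 4 h and 24 h, which leaves no SE there, and was 4.31e-76 at 3 d with an SE of 0.074. Among all tested genes of the authors' deposited tables Cycs ranked 833 of 17523, 578 of 16442 and 603 of 15111 from the highest change. Its transcripts shared 25.9% of their 50-base windows with other genes (the gene is known to have many processed pseudogenes), so its value is uncertain to that extent.

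Cyc1 encodes cytochrome c1, the complex III subunit from which cytochrome c collects its electron, and changed far less. Its log2 changes were 0.56 ± 0.072, 0.66 ± 0.061 and 0.28 ± 0.057 (SE) at 4 h, 24 h and 3 d in the authors' deposited tables, called higher each time, although the edgeR value at 4 h was -0.38. The ratio of Cycs to Cyc1 was 8.01-fold, 5.59-fold and 2.13-fold higher with MPLA at 4 h, 24 h and 3 d in the authors' deposited tables, whichever tool sets the scale. The members nearest to Cycs over the 3 changes, by straight-line distance, were Cox5a (3.01), Atp5b (3.68), Atp5o (3.97), Cyc1 (4.05) and Atp5f1 (4.11). Even the nearest was thus 3.01 log2 units away, and no member had a profile close to that of Cycs.

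The upstream sequences of Cycs and Cox5a are shown because these were the members called higher by both tools at all 3 times. They are the 250 bases before the RefSeq start (GRCm38.p6), 5′ to 3′ on the gene's strand. Capitals mark any match to the motif letters searched on both strands: GCATGCGC (NRF1), CCGGAAG (ETS), AAGATGGC (YY1), TGACGTCA (CRE), AAGGTCA (ERR), and GGGACTTTC or GGAATTTCC (NF-kappaB).
Cycs (chr6:50566570-50566819, minus strand): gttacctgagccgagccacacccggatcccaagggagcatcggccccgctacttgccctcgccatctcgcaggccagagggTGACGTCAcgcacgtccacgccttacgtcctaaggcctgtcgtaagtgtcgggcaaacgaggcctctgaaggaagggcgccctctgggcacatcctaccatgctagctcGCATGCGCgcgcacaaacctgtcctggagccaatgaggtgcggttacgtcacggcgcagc
Cox5a (chr9:57520982-57521231, plus strand): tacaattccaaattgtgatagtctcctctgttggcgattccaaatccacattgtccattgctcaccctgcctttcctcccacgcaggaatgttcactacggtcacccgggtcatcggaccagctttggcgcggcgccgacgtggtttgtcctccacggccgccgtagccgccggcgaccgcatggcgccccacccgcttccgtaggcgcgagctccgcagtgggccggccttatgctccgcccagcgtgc
The Cycs stretch held a CRE match starting 169 bases and an NRF1 match starting 60 bases before the start. The Cox5a stretch held none of the motif letters, so the 2 members with the same calls had no searched motif in common there.

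Promoters of 250 bases before to 50 after the start were found for 33 of the 42 members. The comparison below is with all 27025 genes that have such a promoter, whether or not they were expressed here. NRF1 letters were in 7 of the 33 (21.2%, against 3.05% of 27025 genes), ETS letters in 10 (30.3% against 9.93%), YY1 in 4 (12.1% against 3.19%), ERR in 4 (12.1% against 5.38%) and CRE in 2 (6.06% against 2.03%). Neither NF-kappaB form was found in the 33, and these occur in 0.403% and 0.381% of genes. NRF1 is a known activator of nuclear respiratory genes and CRE is the element bound by CREB. A match is a description of letters only, and its absence says only that these letters are not in the window. The windows with the NRF1 letters are shown next, 30 bases each with the match in capitals, because their genes took unlike courses. For Uqcrc1, Cox6a1, Atp5g2 and Atp5k the letters also matched on the other strand in an overlapping position, and the match on the gene's strand is the one marked.
Cycs (chr6:50566611-50566640, minus strand): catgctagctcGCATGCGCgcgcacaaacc
Uqcr11 (chr10:80406807-80406836, minus strand): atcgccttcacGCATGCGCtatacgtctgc
Uqcrc1 (chr9:108936668-108936697, plus strand): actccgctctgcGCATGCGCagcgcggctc
Cox6a1 (chr5:115349100-115349129, minus strand): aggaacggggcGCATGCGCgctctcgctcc
Atp5g2 (chr15:102671069-102671098, minus strand): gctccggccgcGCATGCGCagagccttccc
Atp5k (chr5:108434429-108434458, minus strand): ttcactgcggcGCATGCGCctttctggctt
Atp5l (chr9:44920963-44920992, minus strand): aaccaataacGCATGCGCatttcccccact
At 24 h the holders of these letters ranged from 3.15 (Cycs) to -0.97 (Uqcr11) in the authors' deposited table, with 0.22 for Cox6a1, -0.034 for Atp5l, -0.11 for Uqcrc1, -0.23 for Atp5k and -0.88 for Atp5g2. They thus held both the highest member and some of the lowest.

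The CRE letters were shared by Cycs and Uqcrfs1.
Cycs (chr6:50566720-50566749, minus strand): aggccagagggTGACGTCAcgcacgtccac
Uqcrfs1 (chr13:30545327-30545356, minus strand): cggcgtcgcgcTGACGTCAcaaaccctgcg
At 4 h Uqcrfs1 had the highest change of complex III with 0.95, far under the 3.56 of Cycs in the same one of the authors' deposited tables.

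In complex III, 7 of 9 members were called higher and 0 lower at 4 h with DESeq2 in the authors' deposited table, while edgeR called 0 higher and 8 lower. At 24 h it was 4 higher and 2 lower (edgeR 2 and 5), and at 3 d 1 higher and 5 lower (edgeR 1 and 7) in the authors' deposited tables. Beside the DESeq2 counts of each complex stand 31.8%, 32.4% and 29.5% of all tested genes called higher and 31.0%, 32.2% and 25.8% lower. Relative to the median tested gene, all 9 members of complex III were above it at 4 h under both tools, 6 at 24 h and 3 at 3 d.

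The catalytic core contains the Rieske iron-sulphur protein, cytochrome c1 and the mitochondrially encoded cytochrome b. Uqcrfs1, the Rieske protein, had log2 changes of 0.95 ± 0.056, 0.056 ± 0.055 and -0.26 ± 0.05 (SE) at 4 h, 24 h and 3 d in the authors' deposited tables, with DESeq2 adjusted p of 3.26e-64, 0.383 and 4.23e-07. Its edgeR values were 0.0085, -0.36 and -0.39 in the authors' deposited tables, and 0.98, 0.11 and -0.25 less the edgeR median of tested genes. The 4 h increase was thus called with DESeq2 only. The edgeR decrease at 3 d adds nothing to the DESeq2 call, given the shift between the tools. The 2 core proteins, which shape the matrix side of the complex, did not move alike: Uqcrc1 had 0.19, -0.11 and -0.15 and Uqcrc2 0.51, 0.50 and -0.01 in the authors' deposited tables. At 24 h Uqcrc1 was called lower and Uqcrc2 higher by both tools in the authors' deposited table, though 19.7% of the Uqcrc2 exons overlap a gene on the other strand.

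Uqcr11, a small accessory subunit, was the lowest of complex III at 24 h and 3 d. Its log2 changes were 0.0071 ± 0.071, -0.97 ± 0.074 and -0.69 ± 0.056 (SE) in the authors' deposited tables, with DESeq2 adjusted p of 0.94, 1.32e-38 and 5.05e-33. It differed from Uqcr10, another small subunit, by -0.95 (95% interval -1.14 to -0.76) at 24 h and -0.57 (95% interval -0.73 to -0.42) at 3 d within the authors' deposited tables. Uqcr10 itself was not called with DESeq2 at any time, with 0.13, -0.02 and -0.11 in the authors' deposited tables. Uqcrh, the hinge protein that helps cytochrome c dock, had 0.77, -0.086 and -0.49 and was called higher at 4 h (edgeR -0.16) and lower at 3 d in the authors' deposited tables. The ubiquinone-binding proteins Uqcrb and Uqcrq had 0.60, 0.47 and -0.13 and 0.35, 0.46 and 0.13 in the authors' deposited tables. Both were called higher at 4 h and 24 h with DESeq2, but with edgeR they had -0.34 and -0.59 at 4 h and were not called at 24 h in the authors' deposited tables. Uqcrb shared 25.4% of its windows with other genes.

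In complex IV, 10 of 15 members were called higher and 1 lower at 4 h with DESeq2 in the authors' deposited table, against 1 higher and 13 lower with edgeR. The counts were 9 higher and 3 lower at 24 h (edgeR 2 and 11), and 1 higher and 7 lower at 3 d (edgeR 1 and 10) in the authors' deposited tables. Above the median tested gene lay 12, 10 and 5 of the 15 under both tools.

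Cox5a, a matrix-side subunit and one of the earliest to be assembled, was the highest of complex IV at all 3 times. Its log2 changes were 1.21 ± 0.054, 1.44 ± 0.045 and 0.57 ± 0.045 (SE) in the authors' deposited tables, with DESeq2 adjusted p of 1.11e-111, 7.82e-226 and 1.18e-35, and 0.28, 1.03 and 0.44 with edgeR. It is the assembly partner of Cox4i1, the other early subunit, which had 0.27 ± 0.039, -0.48 ± 0.035 and -0.45 ± 0.033 (SE) in the authors' deposited tables and -0.67, -0.90 and -0.58 with edgeR. Cox5a exceeded Cox4i1 by 0.94 (95% interval 0.81 to 1.07) at 4 h, 1.92 (95% interval 1.81 to 2.03) at 24 h and 1.02 (95% interval 0.91 to 1.12) at 3 d within the authors' deposited tables. At 24 h that is a 3.79-fold shift in the ratio of transcripts whose products are built in together. Cox5b, which has a similar name but is another subunit, had 0.55, 0.37 and 0.074 in the authors' deposited tables, and Cox5a exceeded it by 1.07 (95% interval 0.94 to 1.20) at 24 h. Exons of Cox5a overlap a gene on the other strand over 12.8% of their length, and the labels do not say whether counting used strand.

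Several complex IV subunits exist in a common form and a tissue form. Cox6a2, the heart and skeletal muscle form, was called with DESeq2 at 24 h only (edgeR -1.15 at 4 h, called lower), with -0.20 ± 0.4, 1.25 ± 0.26 and 0.22 ± 0.24 (SE) in the authors' deposited tables and a DESeq2 adjusted p of 4.87e-06 at 24 h. The common form Cox6a1 had 0.39, 0.22 and 0.074, and the muscle form exceeded it at 24 h by 1.03 (95% interval 0.51 to 1.56) in the authors' deposited table. Cox7a1, likewise the muscle form, moved in the other direction. It had 0.30 ± 0.37, -1.99 ± 0.48 and -1.08 ± 0.29 (SE) in the authors' deposited tables and was called lower by both tools at 24 h (DESeq2 adjusted p = 8.45e-05) and 3 d (DESeq2 adjusted p = 0.00056). Its common form Cox7a2 had 0.69, 0.46 and -0.13 in the authors' deposited tables, so that Cox7a1 less Cox7a2 was -2.45 (95% interval -3.40 to -1.49) at 24 h and -0.96 (95% interval -1.54 to -0.38) at 3 d. The 2 muscle forms thus went opposite ways at 24 h, though 10.3% of the Cox6a2 exon length overlaps a gene on the other strand.

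Cox7a2l encodes SCAF1, known for a part in joining complexes III and IV in supercomplexes. Whether it does so in cells of this strain was not tested. Cox7a2l was the one complex IV member lower at 4 h with both tools. It had -0.20 ± 0.046, -0.51 ± 0.04 and -0.033 ± 0.036 (SE) in the authors' deposited tables, and was not called at 3 d (DESeq2 adjusted p = 0.466). Against Cox7a2 it was -0.89 (95% interval -1.04 to -0.75) at 4 h and -0.97 (95% interval -1.10 to -0.85) at 24 h, but 0.093 (95% interval -0.025 to 0.21) at 3 d within the authors' deposited tables, an interval that holds 0. It shared 13.8% of its windows with other genes.

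Cox4i2, the lung and low-oxygen form of subunit 4, and Cox6b2, the testis form of subunit 6b, were too poorly measured to place. Their SEs at 24 h were 1.1 and 1.1, against a member median of 0.053, and neither was called with DESeq2 at any time in the authors' deposited tables (Cox4i2 -0.00012, -1.95 and -0.74, Cox6b2 -1.35, -2.30 and -1.05). The edgeR columns of the authors' deposited tables called Cox6b2 lower at all 3 times and Cox4i2 lower at 24 h. The common form Cox6b1 had 0.56, 0.21 and -0.12 in the authors' deposited tables.

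The other complex IV members each have 1 form here, apart from Cox8a. Cox6c had 0.62, 0.061 and -0.35, Cox7b 0.54, 0.20 and -0.30, Cox7c 0.48, 0.14 and -0.24 and Cox8a 0.43, 0.12 and 0.0084 in the authors' deposited tables. All 4 were called higher at 4 h with DESeq2 and lower with edgeR. At 3 d Cox6c, Cox7b and Cox7c were called lower by both tools in the authors' deposited table, and Cox8a was not called with DESeq2 (edgeR -0.12, called lower).

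**Figure D3:**
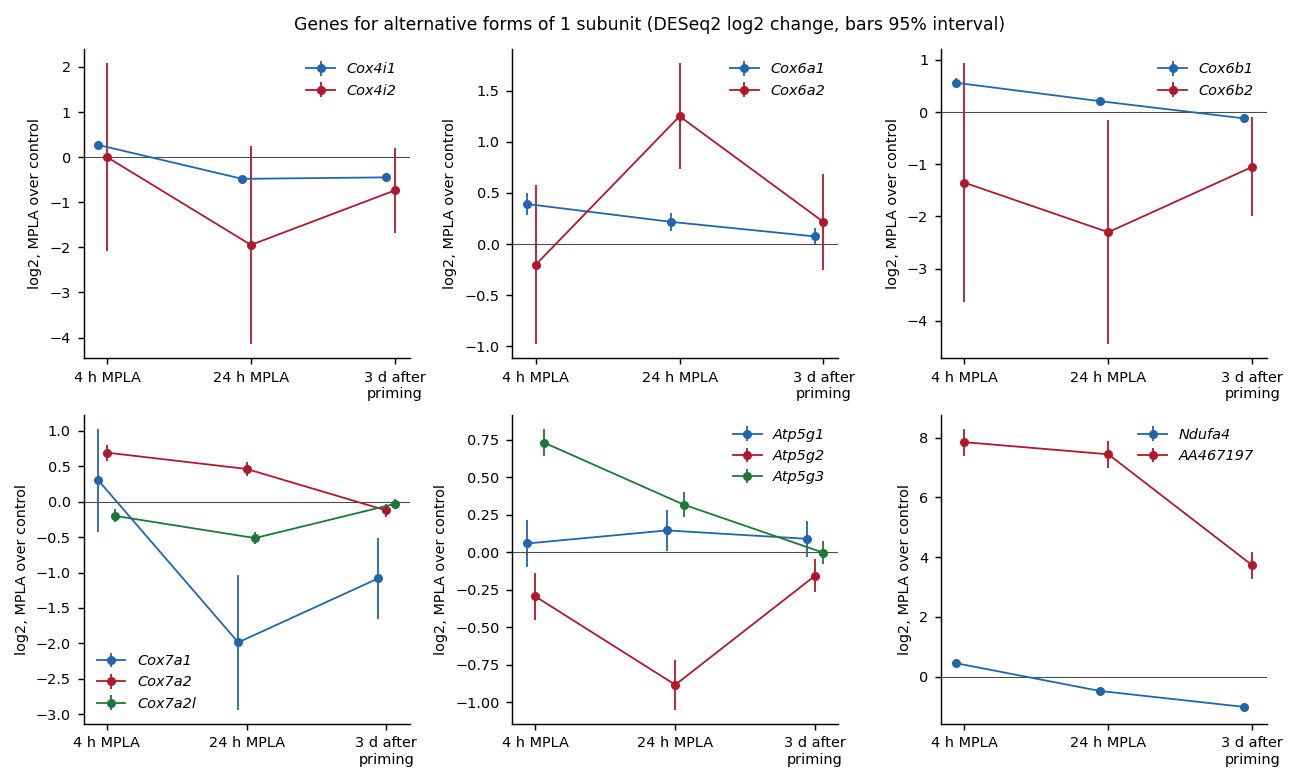
DESeq2 log2 change against control (y axis, own scale in each panel) at the 3 times (x axis) for genes that encode alternative or related forms of a subunit, with 95% intervals from the implied SE; lines join the values of 1 gene and carry no test. Cox6a2 and Cox7a1 part at 24 h (1.25 and -1.99), Atp5g2 lies below Atp5g3 at all 3 times, and AA467197 lies far above Ndufa4.

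In complex V, 12 of 17 members were called higher and 3 lower at 4 h with DESeq2 in the authors' deposited table, against 0 higher and 16 lower with edgeR. The counts were 5 and 5 at 24 h (edgeR 3 higher, 14 lower) and 2 and 9 at 3 d (edgeR 0 higher, 14 lower) in the authors' deposited tables. Above the median tested gene lay 14, 12 and 5 of the 17 under both tools.

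The F1 head, which makes ATP, is built of alpha, beta, gamma, delta and epsilon subunits. Atp5b, the catalytic beta subunit, had 0.93 ± 0.033, 0.84 ± 0.029 and 0.21 ± 0.031 (SE) at 4 h, 24 h and 3 d in the authors' deposited tables and -0.0067, 0.43 and 0.081 with edgeR. It was called higher at all 3 times with DESeq2 and at 24 h with edgeR. Atp5a1, the alpha subunit present in equal number, had 0.78 ± 0.033, 0.042 ± 0.03 and -0.11 ± 0.031 (SE) in the authors' deposited tables. Atp5b less Atp5a1 was 0.15 (95% interval 0.056 to 0.24), 0.80 (95% interval 0.72 to 0.88) and 0.32 (95% interval 0.23 to 0.41) within the authors' deposited tables, above 0 each time. The gamma subunit Atp5c1 had 0.13, 0.29 and -0.12, the delta subunit Atp5d 0.062, 0.054 and 0.13 and the epsilon subunit Atp5e 0.30, -0.14 and -0.24 in the authors' deposited tables. Of these Atp5e was called lower by both tools at 24 h and 3 d, and Atp5d was called with DESeq2 at 3 d only, higher, while edgeR had -0.87, -0.36 and 0.0044 and called it lower at 4 h and 24 h.

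The peripheral stalk holds the head still. Its OSCP subunit Atp5o had 0.69, 0.76 and 0.032 and its b subunit Atp5f1 0.76, 0.50 and -0.052 in the authors' deposited tables, and both were higher with both tools at 24 h. At 4 h they were called higher with DESeq2 and lower with edgeR (-0.24 and -0.18) in the authors' deposited table. The d subunit Atp5h had 0.32, -0.044 and -0.066 and the F6 subunit Atp5j 0.37, 0.10 and -0.24 in the authors' deposited tables, neither of them called at 24 h with DESeq2. For Atp5o 35.6% of the exon length overlaps a gene on the other strand, the largest share among members.

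The c-ring turns as protons pass, and its subunit c is made from any of 3 genes whose mature proteins are identical. Atp5g1 had 0.059 ± 0.081, 0.15 ± 0.069 and 0.09 ± 0.062 (SE), Atp5g2 -0.29 ± 0.08, -0.88 ± 0.084 and -0.16 ± 0.057 and Atp5g3 0.73 ± 0.047, 0.32 ± 0.044 and -0.0024 ± 0.04 in the authors' deposited tables. Atp5g2 was called lower by both tools at all 3 times, with DESeq2 adjusted p of 0.00051, 6.24e-25 and 0.013 in the authors' deposited tables. Atp5g3 was called higher with DESeq2 at 4 h and 24 h (edgeR -0.20 and -0.10), and Atp5g1 was never called with DESeq2. Atp5g2 less Atp5g3 was -1.03 (95% interval -1.21 to -0.84) at 4 h, -1.20 (95% interval -1.39 to -1.01) at 24 h and -0.15 (95% interval -0.29 to -0.017) at 3 d within the authors' deposited tables. Atp5g2 shared 38.3% of its windows with other genes, the most of any member, and Atp5g1 10.2%, so the split between these genes is uncertain.

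A trio of small subunits sits where neighbouring synthases meet in the membrane. Atp5k (subunit e) had 0.44, -0.23 and -0.31, Atp5j2 (subunit f) 0.22, 0.03 and -0.24 and Atp5l (subunit g) 0.35, -0.034 and -0.063 in the authors' deposited tables. All were called higher at 4 h with DESeq2 and lower with edgeR. Atp5k was called lower by both tools at 24 h and 3 d, and Atp5j2 at 3 d, in the authors' deposited tables.

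The lowest members at 4 h were Atp5s and Atp5sl. Atp5s encodes coupling factor B, and Atp5sl, now named Dmac2, is known for assembly of complex I and is a member by its symbol. Atp5s had -2.19 ± 0.3, -0.42 ± 0.19 and -0.33 ± 0.14 (SE) and Atp5sl -1.92 ± 0.14, -0.78 ± 0.094 and -0.19 ± 0.068 at 4 h, 24 h and 3 d in the authors' deposited tables. Both were called lower by both tools at each time, with DESeq2 adjusted p at 4 h of 1.38e-12 and 2.16e-41. They were 4.55-fold and 3.77-fold lower at 4 h in the authors' deposited table. Without this pair, 12 of 15 complex V members were called higher and 1 lower at 4 h with DESeq2 (edgeR 0 and 14) in the authors' deposited table.

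Set side by side, with no test because the times share controls and their tables were normalized apart, 33 of 42 members had a lower DESeq2 value at 24 h than at 4 h. A lower value at 3 d than at 24 h was found for 32 of 42 in the authors' deposited tables. The same counts, and the call patterns that follow, were not made over all tested genes. A falling course is thus not shown to be particular to the members. The largest single group of calls, 8 members, was higher at 4 h and 24 h and not called at 3 d. A further 6 were higher at 4 h and 24 h but lower at 3 d, and 6 were higher at 4 h, not called at 24 h and lower at 3 d, as called with DESeq2 in the authors' deposited tables (edgeR turned 26 of the 4 h calls). Cyc1, Cox5a, Atp5b and Cycs were called higher 3 times. Uqcrc1, Cox4i1, Atp5e and Atp5k went from higher at 4 h with DESeq2 (lower with edgeR) to lower at 24 h and 3 d with both.

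Genes that help to build complex IV were called in both directions, as were all tested genes. Among 27 genes for complex IV assembly and its copper and haem, 11 were called higher and 10 lower at 4 h, 13 and 5 at 24 h, and 11 and 7 at 3 d in the authors' deposited tables. Of all tested genes, DESeq2 called 31.8% higher and 31.0% lower at 4 h, 32.4% and 32.2% at 24 h, and 29.5% and 25.8% at 3 d. With edgeR 7, 8 and 8 were called higher and 18, 13 and 12 lower. Calls of at least 2-fold with DESeq2 numbered 14 of 27 at 4 h, 8 at 24 h and 0 at 3 d, against 4, 4 and 2 of the 42 members and 36.6%, 29.2% and 11.6% of all tested genes in the authors' deposited tables. Sco1, a copper chaperone of complex IV, had 3.28, 2.23 and 0.23 in the authors' deposited tables. Cox18, which inserts a subunit into the membrane, had 2.33, 2.14 and 0.86 and the assembly factor Coa5 2.17, 2.04 and 0.52 in the authors' deposited tables. Cox17, which delivers copper to Sco1, had 1.65, 1.13 and 0.27 in the authors' deposited tables. At the other end of the list Coa6, another copper-handling assembly factor, had -1.76, 0.056 and -0.31 and Cep89 -1.75, -1.29 and -0.44 in the authors' deposited tables. Oxa1l, an insertase of the inner membrane, had -1.28, -0.51 and -0.10 in the authors' deposited tables. All 3 were called lower at 4 h, Cep89 and Oxa1l also at 24 h, and Coa6 and Cep89 at 3 d. Of 7 complex III assembly genes 1, 4 and 3 were called higher and 2, 2 and 1 lower with DESeq2 in the authors' deposited tables (edgeR 0, 3 and 3 higher, 7, 3 and 1 lower).

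Of the listed genes around complex IV, AA467197 had the largest change at each time. It is known as Nmes1, and its product is a relative of the complex IV subunit Ndufa4 that is induced by inflammation. AA467197 had 7.85 ± 0.23, 7.44 ± 0.23 and 3.73 ± 0.23 (SE) at 4 h, 24 h and 3 d in the authors' deposited tables. Ndufa4 had 0.45 ± 0.053, -0.48 ± 0.052 and -1.01 ± 0.047 (SE) in the authors' deposited tables and was called lower by both tools at 24 h and 3 d. AA467197 less Ndufa4 was 7.40 (95% interval 6.94 to 7.86), 7.92 (95% interval 7.47 to 8.37) and 4.74 (95% interval 4.29 to 5.20) within the authors' deposited tables. Levels are not known, so which of these transcripts was the more abundant cannot be read. Higd1a and Higd2a, related proteins that associate with complex IV, parted too, with 1.40, 1.06 and 0.51 for Higd1a and -0.37, -0.81 and -0.25 for Higd2a in the authors' deposited tables.

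For complex V, Atpif1 encodes the inhibitor that stops the synthase from running backwards. It had 0.11 ± 0.048, -1.05 ± 0.048 and -0.56 ± 0.039 (SE) in the authors' deposited tables, called lower by both tools at 24 h and 3 d. Atpif1 less Atp5b was -0.82 (95% interval -0.94 to -0.71), -1.89 (95% interval -2.00 to -1.78) and -0.77 (95% interval -0.87 to -0.68) within the authors' deposited tables. A list drawn up for complex V assembly, inhibitor and small subunits had 10 tested genes. Of these 6, 5 and 1 were called higher and 3, 3 and 4 lower with DESeq2 in the authors' deposited tables (edgeR 2, 1 and 1 higher, 8, 6 and 6 lower). The list also held Atp6ap1, of the vacuolar proton pump, and Foxred1, known for complex I assembly. Both were among those called higher at 4 h, Foxred1 also at 24 h. Atp6ap1 was the 1 gene called higher at 3 d, so no complex V gene of the list was.

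Of the 6 mitochondrially encoded partners, 2 were called higher at 4 h with DESeq2 (edgeR 0 higher, 4 lower), and 4 were called lower at 24 h and 4 at 3 d with both tools in the authors' deposited tables. mt-Cytb, the complex III cytochrome b, had 0.46 ± 0.038, -1.12 ± 0.036 and -1.28 ± 0.043 (SE), and mt-Co1, the catalytic subunit of complex IV, 0.54 ± 0.043, -0.50 ± 0.04 and 0.01 ± 0.044 in the authors' deposited tables. The other 4 were less precise, with an SE at 24 h from 0.5 (mt-Co3) to 1.1 (mt-Atp8) in the authors' deposited table. Of 36 complex I subunits by name (Ndufa4 included), the nuclear set most like the members, 18 were called higher and 7 lower at 4 h, 15 and 12 at 24 h, and 8 and 16 at 3 d with DESeq2 in the authors' deposited tables. With edgeR 0, 1 and 1 of the 36 were higher and 35, 25 and 22 lower. Of all tested genes, DESeq2 called 31.8%, 32.4% and 29.5% higher and 31.0%, 32.2% and 25.8% lower. The difference between the members and complex I was not tested.

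**Figure D4:**
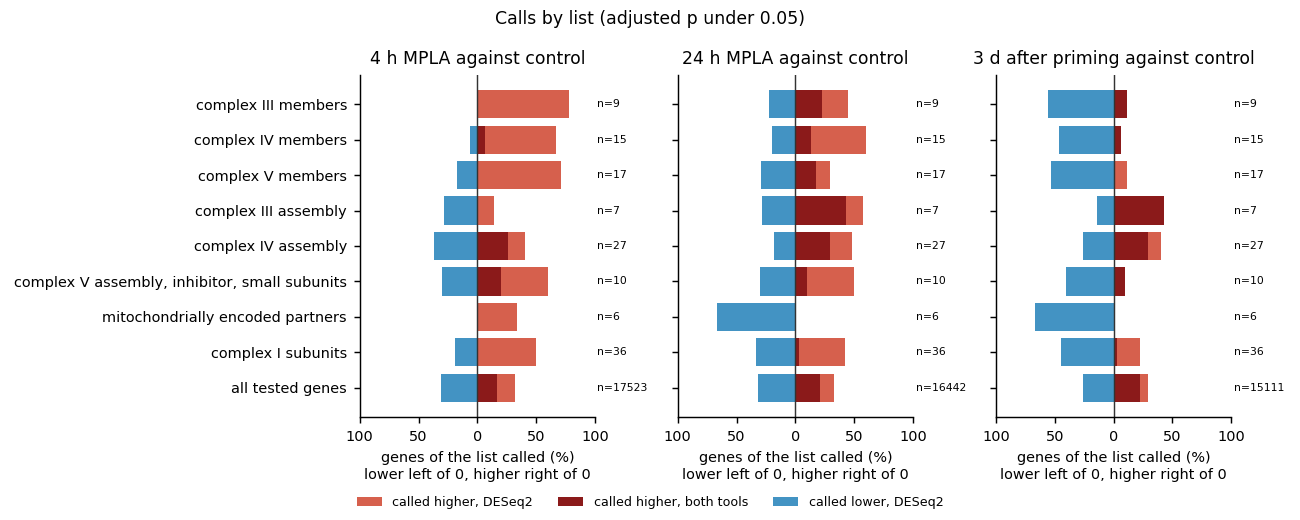
Share of each list's tested genes (%) called higher (right of 0) and lower (left of 0) at an adjusted p under 0.05 with DESeq2, with those called higher by both DESeq2 and edgeR in dark red, beside all tested genes. At 4 h Cox5a is the one subunit gene of complexes III to V higher with both tools, and at 3 d the lower share exceeds the higher share in all 3 complexes.

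Cytochrome c binds Apaf1 in the cytosol to form the apoptosome. Of 8 apoptosome partners 5, 6 and 2 were called higher and 2, 0 and 2 lower with DESeq2 in the authors' deposited tables, and 3, 4 and 2 higher and 4, 3 and 6 lower with edgeR. Among 15 transcription factors linked to respiratory genes (14 tested at 24 h and 3 d), 10, 6 and 3 were called higher and 2, 3 and 5 lower with DESeq2 (edgeR 3, 4 and 2 higher, 11, 10 and 8 lower) in the authors' deposited tables. Ppargc1b, a coactivator of respiratory genes and the highest of the list at 4 h, had 3.66, 1.27 and 1.06 in the authors' deposited tables. Nrf1 had 0.72, 0.13 and -0.11. At the other end Gabpb2 was the lowest called at 4 h and was called lower at 24 h too. Tfb2m was called lower at all 3 times with DESeq2. Of 8 tested carriers and channels for ADP, ATP and phosphate, 7, 4 and 4 were called higher and 0, 3 and 2 lower with DESeq2 in the authors' deposited tables (edgeR 2, 3 and 3 higher, 4, 3 and 3 lower). Beside these lists and that of complex V assembly stand the DESeq2 shares of all tested genes. They were 31.8%, 32.4% and 29.5% higher and 31.0%, 32.2% and 25.8% lower.

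The member transcripts are short, with a median of 759 bases for the longest coding transcript against 3022 over 14584 protein-coding genes, and their median GC content was 51.3% against 50.3%. More than 10% of the 50-base windows were shared with other genes for 9 members, and 12 overlap an exon on the other strand. Shares of windows not given above were Cox7c 22.1%, Atp5h 19.9%, Atp5o 14.0% and Cox5b 11.9%.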

How the data were processed

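RNA-seq libraries of bone marrow-derived macrophages were used, 3 in each of 4 groups, mapped to groups by their titles. Per the submitters' processing notes the tools were bcl2fastq, TopHat2, HTSeq, edgeR, DESeq2 and DESeq, with build mm10; versions, annotation and the use of strand in counting are not given in the sources used here. Per the file headers, the authors' deposited tables give per gene the log2 change with its raw and adjusted p-value, from DESeq2 and from edgeR, an unscaled log2 ratio, and baySeq scores (a likelihood and its adjusted form, used as an error rate). They hold no values per library, so absolute depth per library is unknown and no model was refitted.

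Control over MPLA was the deposited direction. The sign was turned after the order of the groups and the values of Il6, Tnf and Nos2 were read. A call is the authors' DESeq2 adjusted p under 0.05 over the whole table. SEs were worked back from the p-values of the authors' DESeq2 columns. A run on simulated data used the same normal formula both ways, so it checked the arithmetic only. Whether the authors' p-values follow that formula was not tested. Shared windows of 50 bases, exon overlaps and coordinates came from the GENCODE annotation of GRCm38, and promoters from RefSeq GRCm38.p6. Python 3.11.15, pandas 2.3.3, numpy 2.4.6 and scipy 1.17.1 were used.

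The members and lists were chosen with earlier results of these data known. Named genes were Cycs, Cyc1, the sets of subunit forms, and in each complex the 4 highest and 4 lowest changes; the rest of the members were added so that each is accounted for. From the other lists, genes were named from the 3 highest and 3 lowest called at each time, with Ndufa4, Cox17, mt-Cytb, mt-Co1, Nrf1, Adgre1 and Csf1r named for their role. Alternatives were the authors' edgeR and baySeq columns, the edgeR change less its median, the unscaled ratio, adjustment over all p-values, a 2-fold minimum, and leaving out Cycs or genes with over 10% shared windows.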

Additional observations from a re-analysis of the deposited data

How the results depend on the processing

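No paired analysis was possible because the authors' deposited tables hold no values per library, and leaving out single libraries was not run for the same reason. Under the edgeR columns the members called higher numbered 2 at 4 h, 8 at 24 h and 3 at 3 d, and those called lower 37 at 4 h and 30 at 24 h. By the baySeq error rate, with the direction taken from the DESeq2 change, 11 were higher at 24 h, and 2 higher and 1 lower at 3 d. Calls by all 3 methods left 2 higher at 4 h, 8 higher at 24 h, and 2 higher and 1 lower at 3 d. A baySeq share over all genes was made for 3 d only (16.4%). None was made for baySeq at 24 h or for calls by all 3 methods. Whether those counts differ from all genes cannot be read. A 2-fold minimum left 2 higher and 2 lower at 4 h, 3 and 1 at 24 h, and 1 and 1 at 3 d. Without genes with shared sequence 2 were lower at 4 h. The other counts stayed within 1.5 times of those reported. All 6 did so under the edgeR change less its median, the unscaled ratio less its median, adjustment over all p-values, and without Cycs. The edgeR change and the unscaled ratio less their medians kept the DESeq2 call and took only the sign from the centred scale. Leaving out Cycs removed 1 gene. Under these settings the counts could hardly move, so they add nothing to the DESeq2 calls.

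With the edgeR columns 49 member changes called with either tool took the opposite sign, by the construction of that scale. At 4 h these were Atp5a1 -0.16, Atp5b -0.0067, Atp5c1 -0.80, Atp5d -0.87, Atp5e -0.63, Atp5f1 -0.18, Atp5g1 -0.88, Atp5g3 -0.20, Atp5h -0.61, Atp5j -0.57, Atp5j2 -0.72, Atp5k -0.49, Atp5l -0.59, Atp5o -0.24, Cox4i1 -0.67, Cox5b -0.39, Cox6a1 -0.54, Cox6b1 -0.38, Cox6c -0.31, Cox7a1 -0.61, Cox7a2 -0.24, Cox7b -0.39, Cox7c -0.46, Cox8a -0.50, Cyc1 -0.38, Uqcr10 -0.81, Uqcr11 -0.93, Uqcrb -0.34, Uqcrc1 -0.75, Uqcrc2 -0.43, Uqcrh -0.16 and Uqcrq -0.59, all edgeR log2 changes of the authors' deposited tables. At 24 h they were Atp5a1 -0.37, Atp5c1 -0.12, Atp5d -0.36, Atp5g1 -0.27, Atp5g3 -0.10, Atp5j -0.32, Atp5j2 -0.38, Cox5b -0.046, Cox6a1 -0.20, Cox6b1 -0.21, Cox6c -0.35, Cox7b -0.21, Cox7c -0.27, Cox8a -0.29 and Uqcrfs1 -0.36, and at 3 d Atp5o -0.10 and Cox8a -0.12. As centred scales lie near DESeq2, no member change called with DESeq2 took the opposite sign under the edgeR change or unscaled ratio less its median. Changes near 0 called lower with edgeR alone did: under the edgeR change less its median Atp5h was 0.0073, Atp5l 0.018 and Uqcr10 0.032 at 24 h, and Atp5g3 0.013 and Uqcrc2 0.005 at 3 d. Absolute depth and levels are unknown and only relative depth could be read, so the precision of a change was taken from the implied SE.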
